A study of Mus musculus with 8 samples.

Results

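Hdac1, Hdac2 and Hdac6 encode histone deacetylases, the enzymes that trichostatin A (TSA) inhibits, and their transcripts were followed in mouse neural stem cell cultures exposed to TSA, to a DNA methylation inhibitor, or to both. The members were all probe sets that the array annotation assigns to these genes alone. There was 1 probe set for each, so 3 of 8252 named genes and 3 of 12488 probe sets are described, and all 3 passed the filter on low signals that left 7987 probe sets for testing. The cells were neurosphere cells, which are floating cultures of neural stem and progenitor cells, grown from single forebrains that were taken at embryonic day 14.5 and kept apart. All 4 groups carried a bcl2 transgene, whose promoter is not given in the sources used here. Untreated cells received neither compound, the AzaC group received 500 nM 5-aza-2'-deoxycytidine (AzaC, which traps DNA methyltransferases), the TSA group received 150 nM TSA, and the AzaC/TSA group received both at these doses, each over 2 days of culture. Each group had 2 arrays, 1 from each of 2 independent experiments, so every group mean rests on n = 2.

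Histone deacetylases remove acetyl groups from lysines. Hdac1 and Hdac2 are closely related nuclear class I enzymes that work as the catalytic subunits of the Sin3, NuRD and CoREST corepressor complexes, and in the developing brain they act together in neural progenitors. Hdac6 is a class IIb enzyme with a pair of catalytic domains and a ubiquitin-binding zinc finger; it lies mainly in the cytoplasm, deacetylates alpha-tubulin, Hsp90 and cortactin, and carries ubiquitinated proteins to the aggresome. TSA binds the zinc ion of the active site and blocks enzyme activity, so the transcript levels below are not a measure of that inhibition.

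Values are signal intensities on a linear scale. The 8 arrays had medians of 59.2 to 72.7, with 53.1% to 58.3% of their probe sets at or above 50, the signal used as a filter. The ratio of 5' to 3' actin control signals, a sign of RNA integrity, was 0.29 to 0.39 on TSA-exposed arrays and 0.332 to 0.471 on the others. The neural stem cell markers Sox2 and Nes were bright on every array, at 2390.6 to 4830.4 and 1049 to 3003. Fabp7 and Notch1 also reached the filter signal on all 8 arrays, Pax6 on 6, Prom1 on 4, Msi1 on 2, and Vim and Hes5 on 1 each. The summed signal of 9 stem and progenitor genes was 6120 to 13800 on TSA-exposed arrays and 14900 to 17500 on the others. Most of this sum on the unexposed arrays came from Fabp7, so it does not describe the 9 genes together. Of 7 tested, 0 rose and 1 fell with TSA averaged over AzaC by limma: Fabp7, a radial glial fatty acid binding protein (1062.9 to 5499.4 against 7830.1 to 10920.1). With the experiment as a replicate block, 1 rose and 2 fell. Over all tested probe sets of this contrast, 6.95% were called higher and 7.56% lower by limma. With the block, 23.9% were called in either direction. The summed neuronal signal overlapped, at 1780 to 2610 against 2130 to 2860 over 9 genes. Of 7 tested, the synaptic genes Snap25 (252 to 615.4 against 4.3 to 31.8) and Syp and the microtubule gene Stmn2 rose while Tubb3 fell. Tubb3 was read by a probe set of the cross-hybridising family kind, so its fall may not be specific to this gene. Among markers of other cells, the summed signal of 9 microglia and blood genes was 414 to 756 with TSA and 232 to 388 without. Of these genes Cd68, a lysosomal protein, did not overlap between the sets (166.9 to 474.1 against 30 to 53), and the other 8 did. Among all tested probe sets, 11% had the 4 TSA-exposed arrays all above the 4 unexposed, and 12.6% all below. Ptprc, Aif1, Itgam and Adgre1 were under the filter signal on all 8 arrays, while Csf1r was at 7.8 to 72.9 with TSA and 35.4 to 123.2 without, and Hba-a1 at 62.8 to 169.2 and 56.8 to 115.6. The summed signals of the astrocyte, oligodendrocyte, endothelial and fibroblast lists overlapped between the sets. With TSA averaged over AzaC, 1 of 4 tested astrocyte genes fell and 1 of 3 tested fibroblast genes rose by limma. In the oligodendrocyte and endothelial lists 0 of 3 and 0 of 1 were called. Aldoc, Gja1, S100b, Col1a1 and Col1a2 of these lists reached the filter signal on all 8 arrays. The widest gap was in cell division genes: the summed signal of 21 genes was 1650 to 2740 with TSA and 13100 to 20800 without. The part of these shifts in the results below was not tested, and in whole cultures fewer cells of a type cannot be told apart from less RNA per cell.

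Hdac6 was the deacetylase that rose with TSA. Its signal was 261.8 and 309.6 in untreated cells of experiments 1 and 2, and 832.9 and 658.5 with TSA. With AzaC it was 248.1 and 329, and with AzaC/TSA 755.3 and 438.5. All 4 TSA-exposed arrays lay above all 4 unexposed arrays, a separation that 11% of the tested probe sets showed in this direction. Group means were 286 ± 33.8 untreated, 289 ± 57.2 with AzaC, 597 ± 224 with AzaC/TSA and 746 ± 123 with TSA (SD, n = 2 each).

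**Figure D1:**
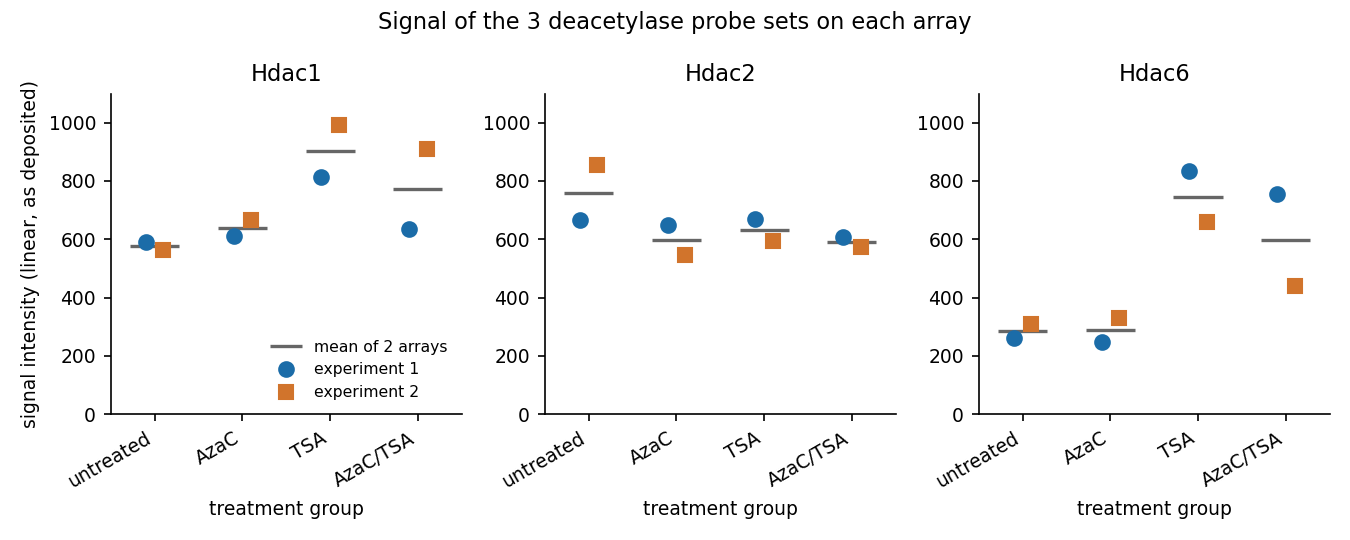
Signal intensity (linear scale) of the Hdac1, Hdac2 and Hdac6 probe sets on each of the 8 arrays, by treatment group; circles are experiment 1, squares experiment 2, and bars the mean of 2 arrays. The TSA and AzaC/TSA arrays of Hdac6, from 438.5 to 832.9, all lie above the other arrays, while the arrays of Hdac2 overlap between groups.

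Whether blocking deacetylase activity alone changed these transcripts was read from TSA against untreated cells. Hdac6 was 2.6-fold higher (log2 change 1.38, SE 0.33, 95% interval 0.64 to 2.12, limma adjusted p = 0.0477, higher in both experiments). It was called beside 2.09% of all probe sets called higher and 5.02% called in either direction, and 4.86% of probe sets had a larger rise. This adjusted p lies close to the threshold of 0.05. The call was lost in 5 of 12 other settings and without untreated 1 (adjusted p = 0.183), untreated 2 (0.187), TSA 1 (0.227), TSA 2 (0.146), AzaC 1 (0.0574) or AzaC 2 (0.0596), while the log2 change stayed between 1.21 and 1.55.

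With the TSA contrast averaged over both AzaC states, which uses all 8 arrays, Hdac6 was 2.29-fold higher (log2 change 1.19, SE 0.23, 95% interval 0.67 to 1.72, limma adjusted p = 0.0112). In this contrast 6.95% of probe sets were called higher and 14.5% in either direction, and 5.07% rose more than Hdac6. The call held without each single array in turn, with adjusted p from 0.00982 to 0.0475, and was lost only when the filter on low signals was dropped (adjusted p = 0.0559).

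**Figure D2:**
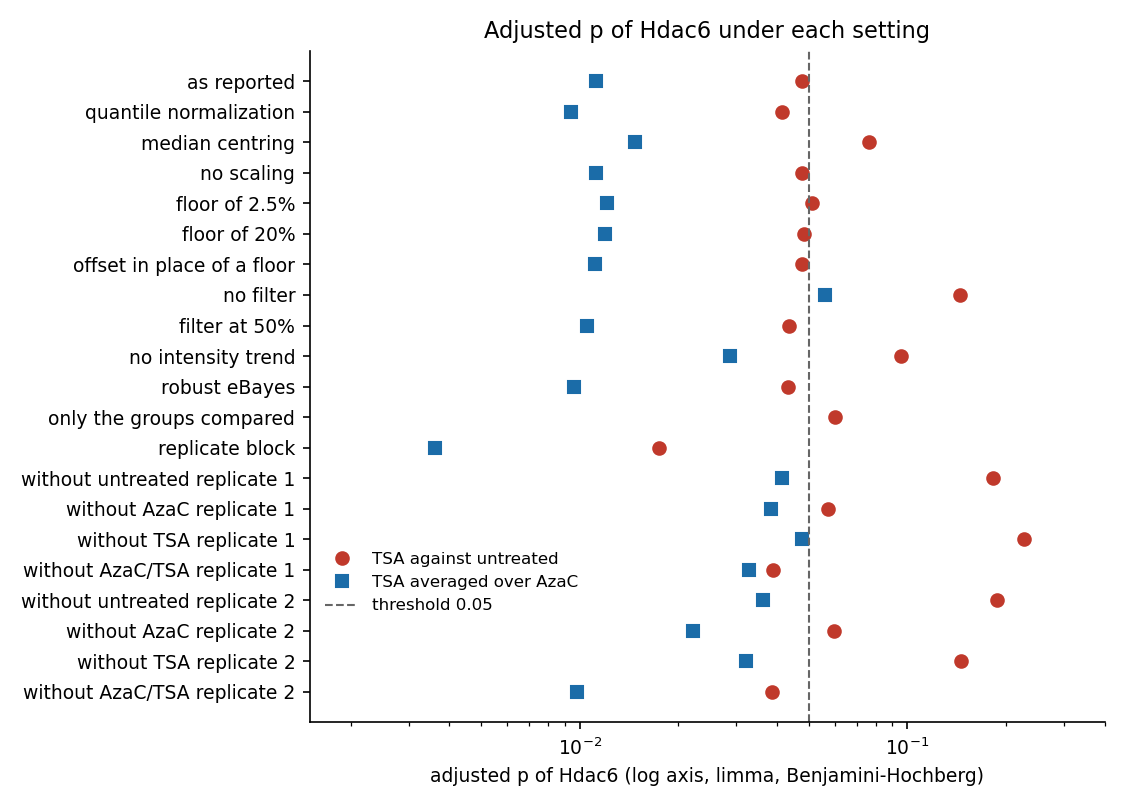
Adjusted p of Hdac6 (limma, logarithmic axis) as reported and under each other setting, for TSA against untreated (circles) and for TSA averaged over AzaC (squares), with the threshold of 0.05 as a dashed line. The squares lie left of the line except without the filter (0.0559), and the circles lie on both sides of it.

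Where AzaC was also present the same direction was measured for Hdac6, with a smaller change and the same standard error. AzaC/TSA was 2.02-fold above untreated (log2 1.02, SE 0.33, 95% interval 0.27 to 1.76), and 2.01-fold above AzaC (1.01, SE 0.33, 0.27 to 1.75). Neither passed, with limma adjusted p = 0.153 and 0.151, against a background of 3.12% and 2.79% of probe sets called. These contrasts share the AzaC/TSA arrays, and the first shares the untreated arrays with the TSA comparison. Within experiment 1 the fold over the matched array was 3.18 for TSA alone and 3.04 for TSA on AzaC. Within experiment 2 these folds were 2.13 and 1.33. Experiment 2 thus gave the smaller rises, with the smallest on AzaC/TSA 2; the difference in response between experiments was not tested.

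The bases before the annotated starts of Hdac6, which rose, and of Hdac2, which did not pass, are shown so that their composition can be compared. Both are 250-base windows of RefSeq annotation on GRCm38.p6, printed 5' to 3' on the gene's strand; 2 of the 3 members matched the table. Capitals mark GC boxes (GGGCGG, the core bound by Sp1 and Sp3) and CCAAT boxes (CCAAT, bound by NF-Y), each searched on both strands; the motifs do not overlap.
Hdac6, chrX:7947890-7948139, minus strand: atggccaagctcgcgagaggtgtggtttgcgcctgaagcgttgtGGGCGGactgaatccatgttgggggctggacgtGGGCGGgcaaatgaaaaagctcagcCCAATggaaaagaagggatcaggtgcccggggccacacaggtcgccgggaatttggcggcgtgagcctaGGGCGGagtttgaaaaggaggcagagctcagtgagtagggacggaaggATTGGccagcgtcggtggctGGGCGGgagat
Hdac2, chr10:36974294-36974543, plus strand: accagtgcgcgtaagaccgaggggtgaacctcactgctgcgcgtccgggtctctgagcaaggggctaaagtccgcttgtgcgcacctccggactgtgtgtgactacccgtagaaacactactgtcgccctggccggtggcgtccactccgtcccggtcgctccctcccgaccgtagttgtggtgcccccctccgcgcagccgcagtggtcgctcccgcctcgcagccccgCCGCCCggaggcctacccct
The Hdac6 window held 4 GC boxes, at 206, 173, 79 and 11 bases before the start, and 2 CCAAT boxes, at 148 and 31 bases before it. The Hdac2 window held 1 GC box, on the opposite strand 20 bases before the start, and 0 CCAAT boxes. Of 32851 windows of this length, 32.7% held a GC box and 4.09% held at least 4, while 33.8% held a CCAAT box and 10.1% at least 2. CpG dinucleotides, the sites that DNA methyltransferases modify, numbered 17 before Hdac6 and 27 before Hdac2, against a median of 6 over all windows. Both windows were therefore richer in CpG than most, with 76.5% and 91.4% of windows holding fewer. These matches describe the letters and show no binding or methylation.

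Hdac1 had higher signals with TSA but did not pass. It was at 591.5 and 563.5 in untreated cells and at 812.9 and 991.5 with TSA, so these groups did not overlap. With AzaC it was 611.6 and 667.2, and with AzaC/TSA 634.9 and 910.3. AzaC/TSA 1 lay below AzaC 2, so the TSA-exposed and unexposed arrays overlapped. Group means were 578 ± 19.8 untreated, 639 ± 39.3 with AzaC, 773 ± 195 with AzaC/TSA and 902 ± 126 with TSA (SD, n = 2 each).

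For TSA against untreated the Hdac1 signal was 1.56-fold higher (log2 0.64, SE 0.26, 95% interval 0.04 to 1.23, limma adjusted p = 0.211). Averaged over AzaC it was 1.36-fold higher (0.44, SE 0.18, 0.03 to 0.86, adjusted p = 0.145), and 23.2% of probe sets rose more. AzaC/TSA against untreated gave 0.40 (SE 0.26, -0.20 to 0.99) and AzaC/TSA against AzaC 0.25 (SE 0.26, -0.34 to 0.84). Per experiment, the log2 change with TSA alone was 0.46 and 0.82, and on AzaC 0.05 and 0.45. All 4 of these changes were upward, the smallest by 0.05, and the unadjusted interval of the averaged contrast runs from 1.02-fold to 1.82-fold. In that contrast 29.6% of all tested probe sets had an unadjusted limma p under 0.05, so an interval clear of no change does not set Hdac1 apart.

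Hdac2, the partner of Hdac1 in the same complexes, showed no shift with TSA past the error. It was at 666.4 and 853.5 in untreated cells and at 669.6 and 595.8 with TSA. With AzaC it was 647.5 and 545.6, and with AzaC/TSA 609 and 574.8. Untreated 2 was the brightest array and the other 7 lay between 545.6 and 669.6, so the treatment groups overlapped. Group means were 760 ± 132 untreated, 633 ± 52.2 with TSA, 597 ± 72.1 with AzaC and 592 ± 24.2 with AzaC/TSA (SD, n = 2 each).

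The log2 change of Hdac2 was -0.26 for TSA against untreated (SE 0.25, 95% interval -0.82 to 0.30, limma adjusted p = 0.621) and -0.13 averaged over AzaC (SE 0.17, -0.53 to 0.26, adjusted p = 0.666). The averaged interval, which is not adjusted for the number of probe sets, covers changes from 0.694-fold to 1.2-fold. Larger shifts of Hdac2 lie outside it, and smaller ones cannot be told from no change. It does not set which shifts would have been called, since Hdac1 at 0.44 did not pass in this contrast (limma adjusted p = 0.145). Without untreated 2 the change for TSA against untreated was -0.08. In experiment 1 the change was 0.01 with TSA alone and -0.09 on AzaC, and in experiment 2 it was -0.52 and 0.08.

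**Figure D3:**
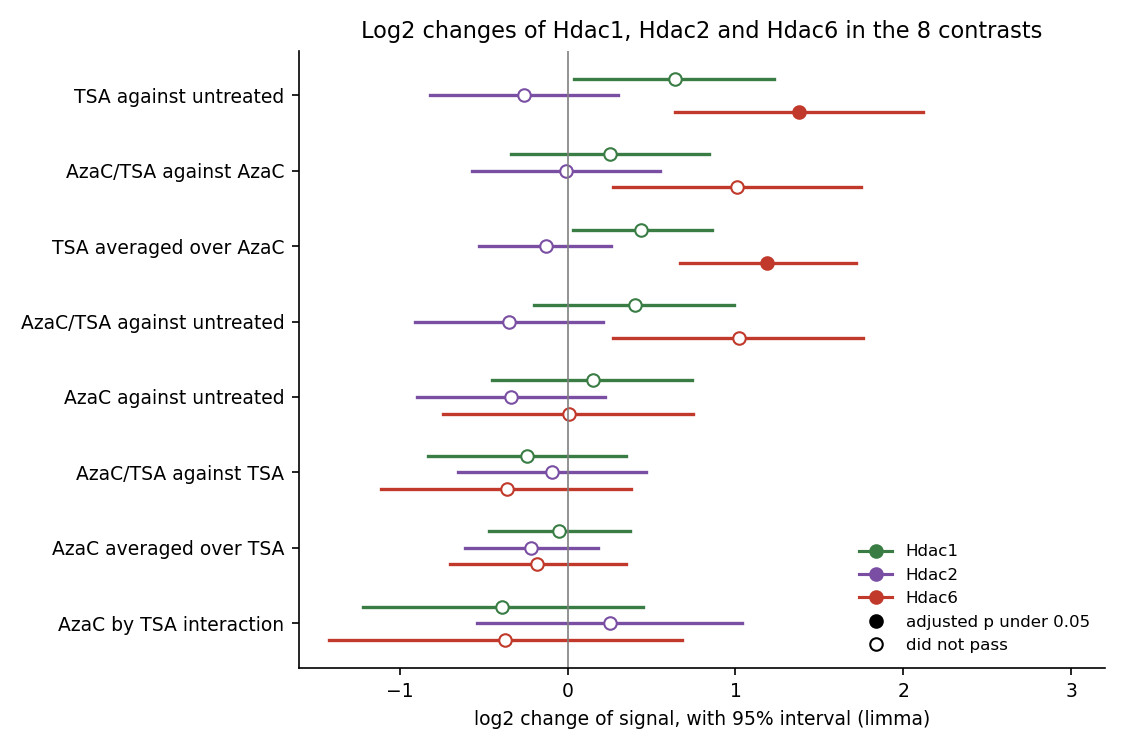
Log2 change (points) with 95% interval (lines) of Hdac1, Hdac2 and Hdac6 in the 8 contrasts, from limma over all 8 arrays; filled points passed an adjusted p of 0.05. The filled points are Hdac6 for TSA against untreated (1.38) and for TSA averaged over AzaC (1.19), and all intervals of Hdac2 cover 0.

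Whether the 3 genes differed in their response was tested on ratios within an array, where a shift shows unequal change. The log2 ratio of Hdac6 to Hdac2 was 0.09 ± 0.33 on the 4 TSA-exposed arrays and -1.23 ± 0.34 on the 4 unexposed arrays (SD), and the difference of 1.33 gave p = 0.0286 in a two-sided exact permutation test over arrays, the smallest that 70 splits allow. The ratio of Hdac6 to Hdac1 was -0.34 ± 0.59 against -1.09 ± 0.19, a difference of 0.75 with exact p = 0.0857. The ratio of Hdac1 to Hdac2 was 0.43 ± 0.32 against -0.14 ± 0.37, a difference of 0.58 with exact p = 0.0857. Over these 3 ratios the Benjamini-Hochberg value was 0.0857 for each of the exact tests, so none passed the adjustment. A single ratio at the smallest p could not have passed it, so this outcome was partly set by the number of arrays. With labels exchanged only within experiments the exact p was 0.0556, 0.167 and 0.0556. Here 0.0556 is the smallest that 36 splits allow, so no ratio could have passed 0.05. Hdac6 over Hdac2 was the ratio whose exposed arrays (-0.39 to 0.31) stood clear of the unexposed (-1.46 to -0.73). That separation is the same event as its smallest exact p over 70 splits. Hdac6 alone was already separated, so the ratio is no further evidence.

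The AzaC comparisons asked how these transcripts differed with AzaC alone or on top of TSA; methylation itself was not measured. Against untreated cells AzaC gave log2 changes of 0.15 for Hdac1 (SE 0.26, 95% interval -0.45 to 0.74), -0.34 for Hdac2 (SE 0.25, -0.90 to 0.22) and 0.01 for Hdac6 (SE 0.33, -0.74 to 0.75). Added to TSA it gave -0.24 (SE 0.26), -0.09 (SE 0.25) and -0.36 (SE 0.33) for the same genes. None of the 3 passed by limma in these contrasts, averaged over TSA, or in the interaction of AzaC and TSA, where 0% of all probe sets were called. Probe sets with an unadjusted limma p under 0.05 numbered 175 (2.19%) for AzaC against untreated and 185 (2.32%) for AzaC/TSA against TSA. They numbered 203 (2.54%) for AzaC averaged over TSA and 142 (1.78%) for the interaction. Each share is below what a threshold of 0.05 gives with no effect, so these counts are no sign of a response. With the experiment as a block, 0, 0, 0 and 0 passed the adjusted threshold in these contrasts. The interaction was -0.39 for Hdac1 (95% interval -1.22 to 0.45), 0.25 for Hdac2 (-0.54 to 1.04) and -0.37 for Hdac6 (-1.42 to 0.68), intervals wide enough to hold a change of over 2-fold in the response.

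In the order of group means, Hdac1 and Hdac6 both ran untreated, AzaC, AzaC/TSA, TSA. Neighbours in that order did not differ past the threshold for either gene: AzaC minus untreated was 0.15 and 0.01, AzaC/TSA minus AzaC was 0.25 and 1.01, and AzaC/TSA minus TSA was -0.24 and -0.36 for Hdac1 and Hdac6. For Hdac2 the order ran AzaC/TSA, AzaC, TSA, untreated, with -0.01 for AzaC/TSA minus AzaC and -0.26 for TSA minus untreated; AzaC against TSA was not tested. Between experiments the members were close, with experiment 2 minus 1 at 0.22 for Hdac1 (SE 0.16), -0.04 for Hdac2 (SE 0.16) and -0.12 for Hdac6 (SE 0.22), and 0 of 3 passed where 4.22% of all probe sets did.

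The genes most like each member were ranked by Pearson's r of log2 signal over the 8 arrays, among 6040 named probe sets above the floor on all arrays; r is a description, since the arrays fall into TSA-exposed and unexposed sets and the highest of many values are taken. For Hdac6 these were Nicn1 (r = 0.99), a subunit of the tubulin polyglutamylase complex, Txnip (0.988), the thioredoxin-interacting protein, Commd9 (0.977), Qdpr (0.972), dihydropteridine reductase, and Vamp4 (0.972), a vesicle fusion protein. Their log2 changes averaged over AzaC ran from 0.70 for Commd9 to 3.65 for Txnip, beside 1.19 for Hdac6, so a like pattern went with unlike size. For Hdac1 they were Imp3 (0.992), Stub1 (0.983), Nans (0.96), Nomo1 (0.959) and Psmb2 (0.956), with averaged changes from 0.49 to 1.03. For Hdac2 they were Sh3glb1 (0.946), Psma2 (0.938), Rnf138 (0.933), B230308N11Rik (0.904) and Arf4 (0.897), with averaged changes from -0.26 to -0.08.

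The array held 6 further genes of the deacetylase families. Of the other zinc-dependent enzymes, Hdac3, the catalytic subunit of the NCoR and SMRT complexes, was at 223.9 and 182.3 untreated and at 321.7 and 259.9 with TSA (log2 averaged over AzaC 0.33, SE 0.20, limma adjusted p = 0.312). The class IIa genes Hdac5 (0.15, SE 0.39) and Hdac7 (-0.16, SE 0.23) also did not pass, so 0 of 3 were called. Hdac5 differed by experiment, with experiment 2 minus 1 at -0.95 on the log2 scale (SE 0.21, limma adjusted p = 0.0386). Among the NAD-dependent sirtuins, which TSA does not target, Sirt2 gave 0.54 (SE 0.23, adjusted p = 0.148, and 0.0489 with the experiment as a replicate block) and Sirt3 gave -0.78 (SE 0.35, adjusted p = 0.175). Sirt3 was lower on all 4 exposed arrays (30.9 to 75.1) than on the unexposed (79.3 to 112.9), as 12.6% of probe sets were. Sirt1, at 2.5 to 28.5, was under the filter on all arrays and was not tested.

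Genes around the members were taken from lists and described for TSA averaged over AzaC, where 6.95% of all tested probe sets were called higher and 7.56% lower (23.9% in either direction with the experiment as a replicate block), with a median log2 change of -0.03. Of 17 tested subunits of Hdac1 and Hdac2 complexes, 0 rose and 3 fell (list median 0.06). The falls were Cdk2ap1 (-1.76, SE 0.22), a NuRD-associated protein, Mbd3 (-1.41, SE 0.19), a methyl-CpG-binding family member, and Rbbp4 (-0.71, SE 0.19), a histone chaperone. Mbd2, of the same family and list as Mbd3, went the other way (0.78, SE 0.30, limma adjusted p = 0.12) and did not pass. The scaffolds Sin3a (0.53), Sin3b (0.11) and Rcor1 (0.55), the remodeller Chd4 (0.33) and Mta2 (0.03) did not pass. Mbd3 signals were 579.7 to 669.7 unexposed and 202.5 to 257.1 exposed, with no overlap. Leaving out single arrays gave 2 or 3 falls.

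Of 25 factors that recruit Hdac1 or Hdac2 to chromatin, 1 rose and 8 fell (median 0.04). The falls were Uhrf1 (-2.54), which brings Dnmt1 to replicated DNA, Cbx5 (-1.93), heterochromatin protein 1 alpha, the pocket protein Rbl1 (-1.68), the Max partner Mxd3 (-1.55), Dnmt1 itself (-1.35), the corepressor Trim28 (-1.23), and Ctbp1 (-0.96) and Ctbp2 (-0.70), C-terminal binding proteins. Rb1, the retinoblastoma protein, rose (1.14, SE 0.26, 75.5 to 144.8 unexposed and 213.6 to 282.8 exposed), a call lost without untreated 1, untreated 2, TSA 1, TSA 2, AzaC 2 or AzaC/TSA 1, each giving 0 rises. Rest (0.13), Yy1 (-0.12), Sp1 (0.11) and Sp3 (0.12) did not pass. The falls numbered 6 to 7 with single arrays left out. Uhrf1, Dnmt1, Rbl1 and Mxd3 are also known as genes of cycling cells, and beside them 20 of 20 tested cell division genes fell (median -3.18). A link between these falls and those of the recruiting factors was not tested.

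Of 19 substrates and partners of Hdac6, 3 rose and 2 fell (median 0.14). Those that rose were the autophagy genes Map1lc3b (1.36, SE 0.23) and Sqstm1 (1.19, SE 0.32), the latter encoding the ubiquitin receptor p62, and Mapt (0.98, SE 0.17), the microtubule protein tau. Map1lc3b was at 567.5 to 944.3 unexposed and 1312.6 to 2387.1 exposed. Prdx2 (-1.34, SE 0.16), a peroxiredoxin that Hdac6 deacetylates, and Tuba1c (-0.56, SE 0.16), an alpha-tubulin read by a probe set of the cross-hybridising family kind, fell. Without any single array in turn the falls dropped to 1. Tuba1a (-0.15), Cttn (0.37), Vcp (-0.38), Hsp90aa1 (0.59) and Plaa (0.35) did not pass. Rises numbered 2 or 3 with single arrays left out.

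Histone acetyltransferases, the opposing enzymes, gave 0 calls among 9 tested genes (median -0.24), with Crebbp at -0.38, Kat2b at -0.45 and Hat1 at -0.53; with the experiment as a replicate block Atf2 was called higher and Hat1 lower, 1 each way. Of 10 tested genes known to respond to deacetylase inhibitors, 5 rose and 1 fell (median 1.92). Clu rose 17.1-fold, Txnip 12.6-fold, Mt2 5.76-fold and Mt1 4.65-fold. Gsn rose by an estimated 8.86-fold (log2 3.15, SE 0.63), with 1 unexposed array under the floor and raised to it. Its arrays overlapped, at 93.9 to 738.1 exposed and 1.5 to 127.2 unexposed. Cyclin D1, Ccnd1, fell by 1.72 (SE 0.44), a call lost without untreated 1, untreated 2, AzaC 1, AzaC 2, TSA 1 or AzaC/TSA 1, each giving 0 falls. Cdkn1a, the p21 inhibitor of cyclin-dependent kinases, was at 0.52 (SE 0.25, adjusted p = 0.202, and 0.0217 with the replicate block). The list was chosen with earlier results of these data known, so its counts are no independent evidence of direction.

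**Figure D4:**
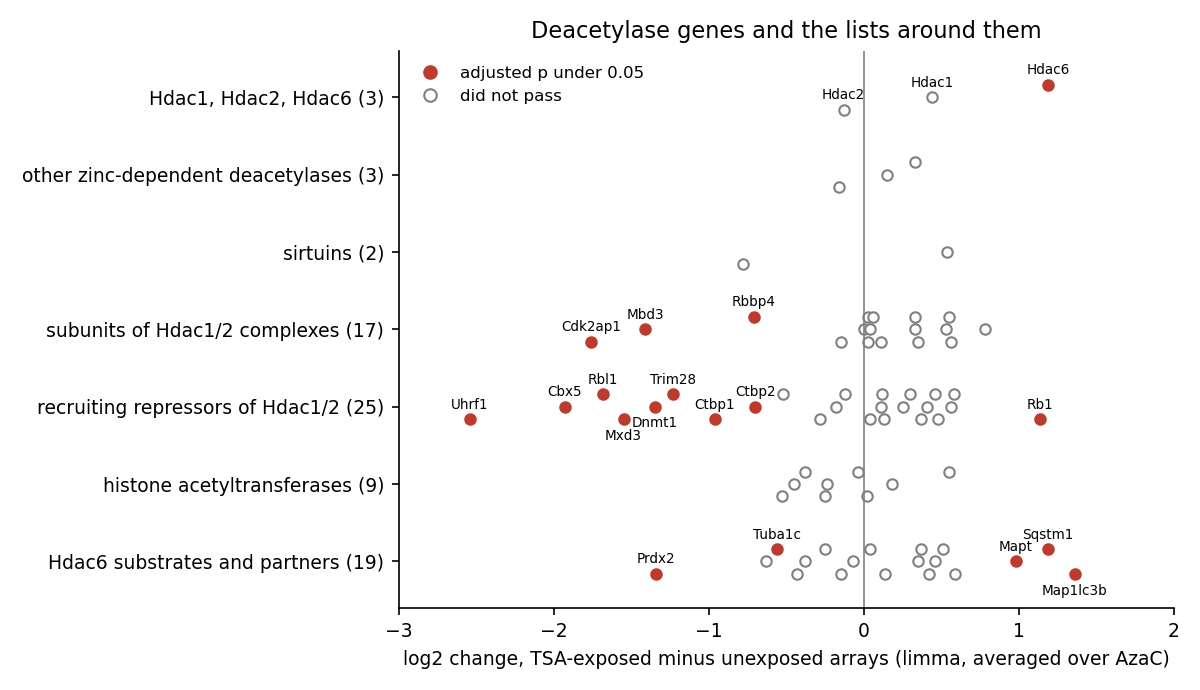
Log2 change of TSA-exposed against unexposed arrays (limma, averaged over AzaC) for Hdac1, Hdac2, Hdac6 and the tested genes of 6 lists, 1 point per gene with the number of genes in parentheses; filled points passed an adjusted p of 0.05 and are named. Hdac6 (1.19) is the filled point among the deacetylases and sirtuins, and most named points of the complex and repressor lists lie left of 0.

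For comparison, TSA against untreated alone called 0 rises and 2 falls among the complex subunits, 0 and 5 among the recruiting factors and 2 and 1 among the Hdac6 substrates and partners, where 2.09% and 2.93% of all probe sets were called higher and lower. With the experiment as a replicate block, where 12.2% of all probe sets were called, the recruiting factors gave 0 and 8, with Ctbp1 (adjusted p = 0.0151), Dnmt1 (0.022) and Mxd3 (0.0197) added, and the Hdac6 substrates and partners 3 and 1, with Sqstm1 (0.0199) added. Without untreated 2 these counts were 0 and 0 in each list, and without TSA 2 they were 0 and 0 in each list as well. Without TSA 1 or untreated 1 the recruiting factors gave 0 and 1.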

How the data were processed

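RNA of 8 neurosphere cultures had been measured on short-oligonucleotide arrays, 1 array each. The authors deposited 1 intensity per probe set and array on a linear scale. The values show that each array had been scaled to the same 2%-trimmed mean of 200; the software is not given in the sources used here. Here, 66 control probe sets were left out, signals under 20 were raised to that floor, and values were log2-transformed. Probe sets were tested where at least 2 of 8 arrays reached 50, which left 7987 (64.3%). limma 3.58.1 in R 4.3.3 (lmFit, eBayes with an intensity trend) fitted 1 mean per group over all arrays, with 4 residual degrees of freedom, with Benjamini-Hochberg adjustment across every tested probe set. The number of arrays limits the precision, and each p-value measures the spread between 2 arrays per group. Same-numbered arrays come from the same experiment, per the labels' titles, and their deviations from group means correlated at r = 0.203 to 0.411 over 6 pairs of groups, so a fit with the experiment as a replicate block was an alternative. Other alternatives were the scaling, floor, filter, variance model, arrays in the fit and each array left out. Ratios between members were compared by exact permutation over arrays. The fit was tested on simulated data. The named genes were every probe set of the members, the deacetylase families, genes called in the lists with examples of those that were not, and the 5 genes most like each member. The members and lists were chosen with earlier results of these data known.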

Additional observations from a re-analysis of the deposited data

Results flagged for a closer look

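The AzaC differences of Hdac7, a class IIa deacetylase, had opposite signs in the 2 experiments. The mean log2 response of Hdac7 to AzaC, over cells without and with TSA, was -0.23 in experiment 1 and 0.33 in experiment 2. Without and with TSA the differences were -0.08 and -0.38 in experiment 1, and 0.59 and 0.06 in experiment 2. The SE of AzaC against untreated over both experiments was 0.33. The share of all probe sets with such opposite signs was not counted. The difference between experiments was not tested, and it rests on 4 arrays each.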

How the results depend on the processing

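Of 471 results for Hdac1, Hdac2 and Hdac6 under other settings, 444 kept their direction and their side of the threshold and 27 did not. Most of these had no call to lose, and the setting with no scaling nearly repeats the main fit, so the total is no measure of robustness. Apart from single arrays left out, the Hdac6 call held in 7 of 12 settings for TSA against untreated and in 10 of 11 averaged over AzaC. For TSA against untreated, Hdac6 no longer passed with median centring (1.31), or at 1.38 with a floor of 2.5%, no filter, no intensity trend or only the groups compared, and ranged from 1.21 to 1.55 with single arrays left out. Averaged over AzaC it failed with no filter (1.19) and ranged from 1.00 to 1.39 with single arrays left out. The cause was not tested. The replicate block changed no call of the members; Hdac6 gave adjusted p = 0.0174 and 0.00362 by limma.

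Uncalled values near 0 changed sign. For AzaC against untreated, Hdac6 was -0.01 with quantile normalization and -0.15 with median centring, and Hdac1 -0.01 with median centring; for AzaC/TSA against AzaC, Hdac2 was 0.11 with median centring. Median centring shifted the median of all probe sets by -0.15, 0.12 and 0.18 for AzaC against untreated, AzaC/TSA against AzaC and the interaction. With single arrays left out, AzaC against untreated ran from -0.20 to 0.21 for Hdac6, AzaC/TSA against AzaC from -0.01 to 0.51 for Hdac1 and -0.13 to 0.12 for Hdac2, and AzaC/TSA against TSA from -0.50 to 0.02 for Hdac1 and -0.76 to 0.03 for Hdac6. The interaction ran from -0.76 to 0.02 for Hdac6, and AzaC averaged over TSA from -0.18 to 0.08 for Hdac1 and -0.38 to 0.02 for Hdac6.

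Counts of probe sets called moved more. TSA against untreated (401) gave 135 with no filter, 216 with no intensity trend, 176 with only the groups compared, 971 with the replicate block and 56 to 367 with single arrays left out. AzaC/TSA against untreated (249) gave 63, 152, 49, 746 and 14 to 223, and AzaC/TSA against AzaC (223) gave 113, 135, 45, 744 and 48 to 158, in the same order. TSA averaged over AzaC (1159) gave 672 with no filter, 1908 with the replicate block and 575 to 804 with single arrays left out. Where limma called 0, no filter gave 13 for AzaC against untreated, 11 for AzaC/TSA against TSA, 11 for the interaction and 17 for AzaC averaged over TSA; no intensity trend gave 1 for the interaction, and AzaC averaged over TSA ran from 0 to 2 with single arrays left out.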

Other observations

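The genes next to the members were also read, 5 on each side in the reference gene order, a choice made with earlier results known. Of the 7 tested neighbours of Hdac6, Pcsk1n, an inhibitor of a prohormone convertase, rose with TSA averaged over AzaC (log2 change 2.54, limma adjusted p = 0.0322), and Timm17b (0.04), Pqbp1 (-0.45), Slc35a2 (0.43), Gata1 (0.10), Was (-0.29) and Wdr13 (-0.82) did not pass. For TSA against untreated Pcsk1n had an adjusted p of 0.129 by limma and was not called. Of the 3 tested neighbours of Hdac1, Marcksl1 fell (-1.51, adjusted p = 0.00419), Bsdc1 rose (0.88, adjusted p = 0.0398) and Tmem234 (-0.54) did not pass. Against untreated alone Marcksl1 (limma adjusted p = 0.0222) was called and Bsdc1 (0.0928) was not. In the averaged contrast 6.95% of all tested probe sets were called higher and 7.56% lower. Beside Hdac2, Marcks (-0.55) and Lama4 (1.31) did not pass.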
